A study of Homo sapiens with 2 samples.

Results

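The caspase genes examined were CASP1, CASP2, CASP4, CASP6, CASP8, CASP9 and CASP10, taken as every probe set of the array that was annotated to exactly 1 of these symbols. They were 7 of 19775 annotated genes and were read by 26 of 41091 single-symbol probe sets. The RNA of Seg-1 cells was hybridised to U133 Plus arrays of Affymetrix, on which a group of short oligonucleotides (a probe set) reports a transcript. Seg-1 was long taken for an esophageal cancer line and, per the labels, is the lung cancer line H460. The first array carried RNA of cells that had received an siRNA directed at FGF-AS, an RNA antisense to fibroblast growth factor 2 (FGF2), and the second carried RNA of cells transfected with a negative control siRNA without homology to a known gene. Both cultures were reverse transfected with a lipid reagent, at siRNA concentrations given only as 25 to 200 nM, and harvested after 72 hours. Each group held 1 array and no untransfected cells were measured, so differences are described without p-values and none was checked by a replicate.

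Caspases are cysteine proteases that cut after aspartate and are made as inactive precursors. Initiator caspases are activated on large adaptor complexes: caspase-8 and caspase-10 below death receptors, caspase-9 on the apoptosome formed with mitochondrial cytochrome c, and caspase-2 on a platform with the adaptors CRADD and PIDD1. Initiators cut and activate executioner caspases, which cleave structural and repair proteins of the dying cell, while inflammatory caspases act in inflammasomes and open gasdermin pores. Caspase activity is set mainly by cleavage of the precursor protein, which an mRNA array does not read.

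The value of a gene was the log2 ratio of its brightest probe set, FGF-AS siRNA over control siRNA, after an offset of 6.1 was added to both signals. Probe sets with a mean signal of at least 23.9, the median of all probe sets, counted as measured. Those with a mean of at least 145.2, the 75th percentile, are called bright here, and the other measured ones dim. The only error available came from how far probe sets of the same gene disagreed: the SD of a single log2 ratio was 0.36 for bright probe sets (3050 genes) and 0.58 for dim ones (2365 genes). These SDs take in neither the spread between cultures nor that between hybridisations. The median signal of all probe sets was 23.1 with FGF-AS siRNA and 25.5 with control siRNA, and the median log2 ratio of the 12352 measured genes was -0.02. NUDT6, which encodes FGF-AS, read 104.5 with FGF-AS siRNA and 376.9 with control siRNA, or 27.7% of control, and its other probe set read 77.8 with FGF-AS siRNA and 267 with control siRNA. Of the epithelial markers KRT8, KRT18 and KRT19 were bright on both arrays, EPCAM was dim (43.8 with FGF-AS siRNA and 34 with control siRNA) and CDH1 was under the minimum (18.4 with FGF-AS siRNA and 0.9 with control siRNA). NKX2-1, listed here among the lung epithelium markers, also read low, at 11.8 with FGF-AS siRNA and 24.9 with control siRNA, a mean under the signal minimum. Of the lung epithelium markers 3 of 6 were measured, all dim. Measured genes numbered 2 of 6 leukocyte markers, 3 of 6 fibroblast markers, 1 of 4 endothelial markers and 0 of 4 squamous markers. The measured leukocyte, fibroblast and endothelial markers summed to 69.5, 287.2 and 55.7 with FGF-AS siRNA, against 71.8, 523.2 and 43.2 with control siRNA, and their part in the results was not tested.

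All 7 caspase genes were measured through their brightest probe set, 5 of them through a bright one. With FGF-AS siRNA, 6 of the 7 genes had a log2 ratio below 0, where 51.8% of all measured genes did, and 1 of the 6, CASP1, turned above 0 under the 3 other scalings of the arrays. CASP9 and CASP10, both initiators, were lower by more than 2-fold, and no caspase gene was higher by 2-fold. That is 2 of 7 genes, where 2.72% of all measured genes were at least 2-fold lower and 2.05% at least 2-fold higher. The count became 0 under each of the 3 other scalings and with the doubled offset of 12.2. CASP10 counted as measured only through its control signal of 47.5, since its signal of 19 with FGF-AS siRNA lay under the minimum, so the count rests on CASP9 alone where both signals are above it. The median over the caspase genes was -0.27 (SD across genes 0.47), against -0.02 over all measured genes. This median, its SD and the 6 of 7 genes below 0 all include CASP10. Over the 5 caspase genes with a bright probe set, which leave out CASP1 and CASP10, the median was also -0.27. Over all genes with a bright probe set it was -0.005. In whole-culture RNA, fewer cells expressing a gene and less RNA per cell cannot be told apart.

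Over the single probe sets the picture was less one-sided. Of the 26 caspase probe sets 15 were measured, 8 bright and 7 dim, and 11 of the 15 had a ratio below 0, where 56.7% of all measured probe sets did. At least 2-fold lower were 3 of the 15, where 5.33% of all measured probe sets were, and 0 were 2-fold higher, where 1.94% were. Split by brightness this was 1 of the 8 bright probe sets, where 2.57% of all bright ones were lower by 2-fold, and 2 of the 7 dim ones, where 8.41% were. Both dim ones, 205467_at of CASP10 and 209811_at of CASP2, passed the minimum only through their control signals, and nothing is read from their share. A ratio larger than the SD of its brightness class was found for 5 of the 15, or 33.3%, close to the 32.1% of all measured probe sets. All 5 of these were lower: both probe sets of CASP9, 1 of CASP8, 1 of CASP10 and 1 of CASP2. Those of CASP10 and CASP2 are the 2 that passed the minimum only through their control signals. All 5 belonged to initiators, but so did 10 of the 15 measured probe sets, and nothing is read from their class. The 11 probe sets under the minimum read between 2.1 and 26.6 with FGF-AS siRNA and between 1.7 and 33.7 with control siRNA, with 8 lower and 3 higher, and are described only where they bear on a gene below.

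**Figure D1:**
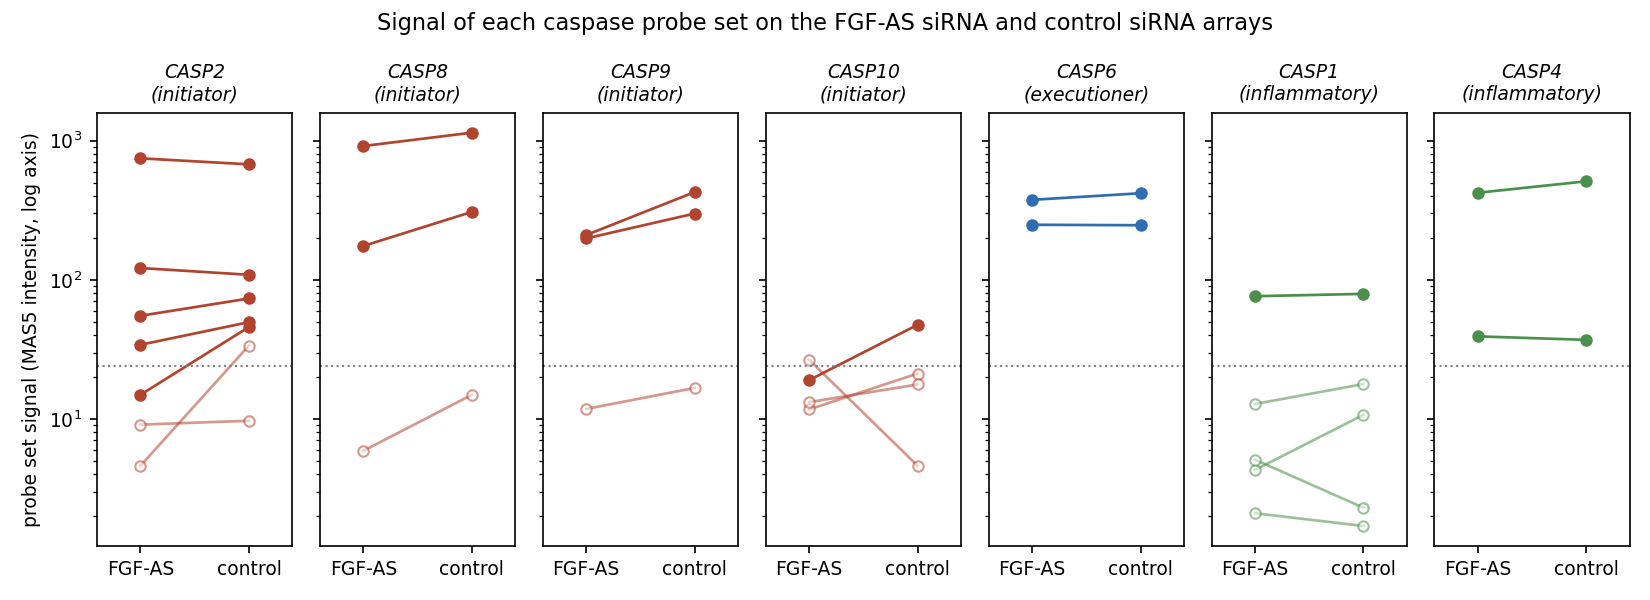
Signal of every caspase probe set (log axis, MAS5 intensity) on the FGF-AS siRNA array and the control siRNA array, 1 panel per gene; a line joins the 2 signals of a probe set, open points have a mean under the signal minimum and the dotted line marks that minimum of 23.9. Both measured CASP9 lines slope up towards control, the CASP6 lines are nearly flat, and CASP2 holds lines of both slopes.

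CASP9 encodes the initiator of the mitochondrial route. Its probe set 203984_s_at read 209.6 with FGF-AS siRNA and 427.5 with control siRNA, or 49.0% of control, a log2 ratio of -1.01. This was 2.82 times the SD of bright probe sets and placed CASP9 at rank 85 from the lowest among 7719 genes with a bright probe set. The second measured probe set, 210775_x_at, read 198.3 with FGF-AS siRNA and 299.3 with control siRNA, a log2 ratio of -0.58 and 1.62 times the SD. The last of its probe sets, 240437_at, was under the minimum at 11.8 with FGF-AS siRNA and 16.7 with control siRNA. All 3 CASP9 probe sets thus read lower with FGF-AS siRNA, but the size differed between them, and the first stood right at the 2-fold line. Its ratio moved to between -0.94 and -0.87 under the 3 other scalings of the arrays, which leaves the gene lower but short of 2-fold. Both measured CASP9 probe sets carry the suffix _s_at or _x_at, which Affymetrix gives to probe sets whose probes match more than 1 transcript, of the same or of other genes.

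The sequence around the start of CASP9 is shown because it was the only caspase gene past 2-fold on a bright probe set, beside that of the executioner CASP6, whose signal was nearly equal on both arrays. RefSeq's table of promoters (GRCh38.p14), 250 bases before and 50 after a start, held 9 entries for 5 of the 7 genes. It lists 2 starts for CASP9, at chr1:15524166-15524465 and chr1:15524741-15525040, and 1 for CASP6, at chr4:109703396-109703695, all on the minus strand. They are written 5′ to 3′ along the gene, with capitals on each match to the GC box GGGCGG on either strand, and matches may overlap each other.
CASP9 promoter 1: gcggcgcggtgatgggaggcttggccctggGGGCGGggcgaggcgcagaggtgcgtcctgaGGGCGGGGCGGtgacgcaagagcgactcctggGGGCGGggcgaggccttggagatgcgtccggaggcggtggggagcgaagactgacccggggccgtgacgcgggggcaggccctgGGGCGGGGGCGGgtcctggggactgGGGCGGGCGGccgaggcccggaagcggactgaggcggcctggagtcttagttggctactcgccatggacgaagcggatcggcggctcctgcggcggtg
CASP9 promoter 2: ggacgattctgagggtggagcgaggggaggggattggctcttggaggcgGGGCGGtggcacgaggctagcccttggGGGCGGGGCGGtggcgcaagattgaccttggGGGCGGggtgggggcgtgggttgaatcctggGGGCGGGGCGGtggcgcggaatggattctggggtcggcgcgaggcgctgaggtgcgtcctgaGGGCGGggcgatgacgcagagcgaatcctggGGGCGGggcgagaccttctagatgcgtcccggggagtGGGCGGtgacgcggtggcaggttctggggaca
CASP6 promoter: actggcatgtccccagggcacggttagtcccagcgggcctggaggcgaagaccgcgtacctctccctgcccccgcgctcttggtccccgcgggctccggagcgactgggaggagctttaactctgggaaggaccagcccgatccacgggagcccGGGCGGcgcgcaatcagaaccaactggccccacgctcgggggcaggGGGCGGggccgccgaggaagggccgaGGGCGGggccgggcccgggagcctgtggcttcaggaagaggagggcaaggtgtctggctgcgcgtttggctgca
The CASP9 sequences held 8 and 9 matches and the CASP6 sequence 3. Of the 35116 promoters in the table, 45.0% held at least 1 match, 15.8% at least 3, 0.812% at least 8 and 0.419% at least 9. The base composition was rich in G and C in all 3, at 76.0% and 71.3% for CASP9 and 72.0% for CASP6, against a median of 58.7% over the table. CASP2 had 4 matches at its first start and 0 at its second, CASP8 had 1, 0 and 0 at its 3 starts, and CASP4 had 1. These matches describe the letters of the sequence, and binding was not measured.

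CASP10 encodes a death receptor initiator closely related to caspase-8. Its brightest probe set, 205467_at, read 19 with FGF-AS siRNA and 47.5 with control siRNA, or 40.0% of control, a log2 ratio of -1.09. This was 1.88 times the SD of dim probe sets, and the FGF-AS siRNA signal lay under the signal minimum. The other 3 CASP10 probe sets had means under the minimum. Of these 210708_x_at read 11.7 with FGF-AS siRNA and 21.2 with control siRNA, and 211888_x_at read 13.2 with FGF-AS siRNA and 17.7 with control siRNA. The remaining one, 210955_at, went the other way at 26.6 with FGF-AS siRNA and 4.6 with control siRNA. CASP10 was thus near the floor of these arrays on every probe set, and its 4 probe sets did not all share a direction.

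CASP8 encodes the main initiator below death receptors such as FAS. Its brightest probe set, 213373_s_at, read 914.6 with FGF-AS siRNA and 1140.9 with control siRNA, a log2 ratio of -0.32 and 0.89 times the SD. The other bright one, 207686_s_at, read 174.9 with FGF-AS siRNA and 307.6 with control siRNA, or 56.9% of control, a log2 ratio of -0.79 and 2.22 times the SD. The probe set 1553306_at was under the minimum at 5.9 with FGF-AS siRNA and 14.9 with control siRNA. All 3 read lower with FGF-AS siRNA, and 1 of the 2 measured ratios exceeded the SD.

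CASP8, CASP10 and CFLAR lie next to each other on chromosome 2 in RefSeq's gene order. CFLAR encodes FLIP, a caspase-8 relative without protease activity that holds back caspase-8 at death receptors. The brightest CFLAR probe set read 646.9 with FGF-AS siRNA and 738.8 with control siRNA, a log2 ratio of -0.19 that was smaller than the SD. Of its 11 measured probe sets 10 were below 0, and the other 10 probe sets ran from -0.70 to 0.36. All 3 neighbouring genes were below 0 on their brightest probe sets, between -1.09 and -0.19, where 51.8% of all measured genes were below 0. The ratios of CASP8 and CFLAR were smaller than the SD, and CASP10 passed the minimum only through its control signal. A shared decrease of the 3 genes is therefore not read from these values.

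CASP2 encodes the initiator linked to DNA damage and centrosome number, and its probe sets gave both directions. The bright probe set 226032_at read 746.4 with FGF-AS siRNA and 675.4 with control siRNA, a log2 ratio of 0.14, and 226036_x_at read 121.5 with FGF-AS siRNA and 108.6 with control siRNA, a log2 ratio of 0.15. Both ratios were smaller than the SD. The 3 dimmer measured ones were all lower. Of these 208050_s_at read 55.1 with FGF-AS siRNA and 73.4 with control siRNA (log2 ratio -0.38), and 34449_at read 34.1 with FGF-AS siRNA and 49.6 with control siRNA (-0.47). The dimmest, 209811_at, read 14.9 with FGF-AS siRNA and 45.8 with control siRNA, a log2 ratio of -1.31 and 2.24 times the SD. Under the minimum, 211140_s_at read 4.6 with FGF-AS siRNA and 33.7 with control siRNA, and 209812_x_at read 9.1 with FGF-AS siRNA and 9.7 with control siRNA. The direction of CASP2 therefore depended on the probe set: it was 0.14 on the brightest and -0.37 as the mean over the 5 measured ones.

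CASP6 encodes an executioner that cleaves nuclear lamins, and it was the only executioner among the genes examined. Its probe set 209790_s_at read 375.4 with FGF-AS siRNA and 418.7 with control siRNA, a log2 ratio of -0.16. The other, 211464_x_at, read 248.5 with FGF-AS siRNA and 246.6 with control siRNA, a log2 ratio of 0.01. Both ratios were smaller than the SD of 0.36, so a difference in CASP6 mRNA was not resolved by these arrays. Both of its probe sets were bright, and their ratios lay within 0.17 of each other.

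Set against each other, the 4 initiators ran from -1.09 to 0.14 on their brightest probe sets with a median of -0.66, and the executioner CASP6 stood at -0.16. The difference of -0.51 between the initiator median and CASP6 came to -0.16 at the stricter signal minimum, which leaves out CASP10. Over probe sets, 8 of 10 measured initiator probe sets were below 0 with a median of -0.52. For the executioner 1 of 2 was below 0 with a median of -0.07, where 56.7% of all measured probe sets were below 0. The initiator count includes 205467_at of CASP10 and 209811_at of CASP2. Both passed the minimum only through their control signals, so nothing is read from that count. With 1 executioner gene and 1 array per group the difference between the classes was not tested.

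CASP1 and CASP4 encode inflammatory caspases, of which caspase-1 activates interleukin 1 beta and caspase-4 senses bacterial lipopolysaccharide inside the cell. CASP4 read 422 with FGF-AS siRNA and 510.2 with control siRNA on 209310_s_at, a log2 ratio of -0.27 and 0.76 times the SD. Its dim probe set 213596_at read 39.2 with FGF-AS siRNA and 37 with control siRNA, a log2 ratio of 0.07. CASP1 was measured on 1 of its 5 probe sets, 211366_x_at, which read 76.2 with FGF-AS siRNA and 79.2 with control siRNA, a log2 ratio of -0.05. Neither gene had a ratio beyond the SD, and the sign of CASP1 turned under the other scalings, to between 0.07 and 0.11. Under these scalings the median over all measured genes lay between 0.05 and 0.12. The 4 other CASP1 probe sets had signals from 2.1 to 12.8 with FGF-AS siRNA and from 1.7 to 17.8 with control siRNA. CASP1 lies in a cluster of related genes on chromosome 11 with CASP4, CASP5 and CARD16, and a dim _x_at signal cannot be assigned to CASP1 with certainty.

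**Figure D2:**
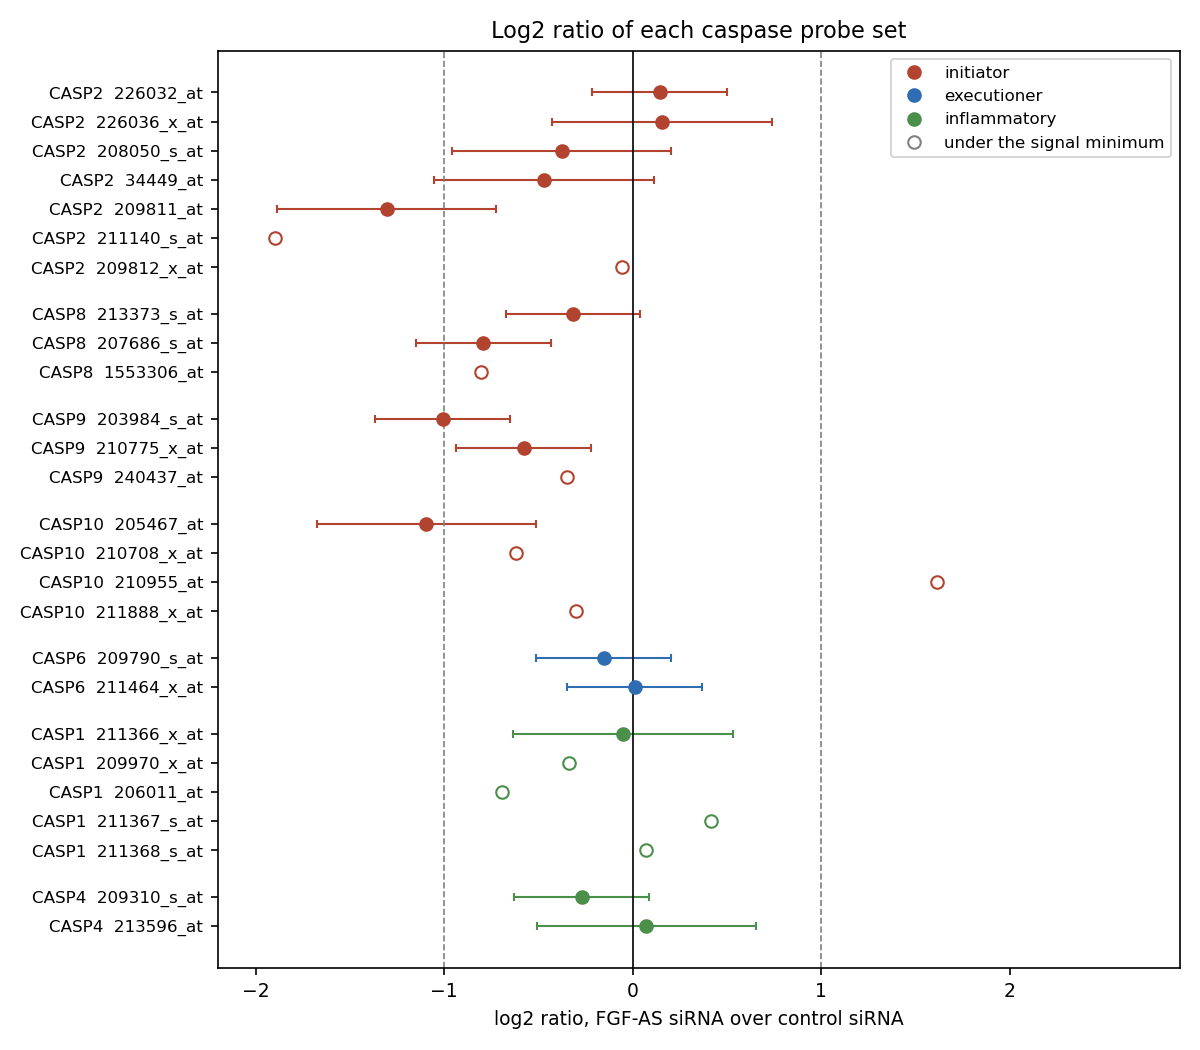
Log2 ratio (FGF-AS siRNA over control siRNA) of each caspase probe set, brightest first within a gene; bars are 1 SD of a single probe set's ratio in its brightness class (0.36 or 0.58), open points have a mean under the signal minimum and carry no bar, and dashed lines mark 2-fold. The probe sets of CASP8 and CASP9 all lie left of 0, those of CASP6 straddle it closely, and CASP2 and CASP10 spread over both sides.

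Among all 12352 measured genes ordered from the lowest ratio, CASP10 stood at percentile 1.97 and CASP9 at percentile 2.66. CASP8 followed at percentile 21.5, CASP4 at 25.1, CASP6 at 35.0 and CASP1 at 45.7, with CASP2 at 66.6. The rank of CASP10 rests on a signal under the minimum with FGF-AS siRNA, and its probe set 210955_at went the other way, so the rank describes that 1 probe set only. Of the 589 genes past 2-fold in either direction 43.0% were higher, and other scalings of the arrays gave shares of 64.8% (median centring), 63.6% (quantile normalization) and 57.6% (loess). With median centring the median over all measured genes became 0.12 and the caspase median -0.13.

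**Figure D3:**
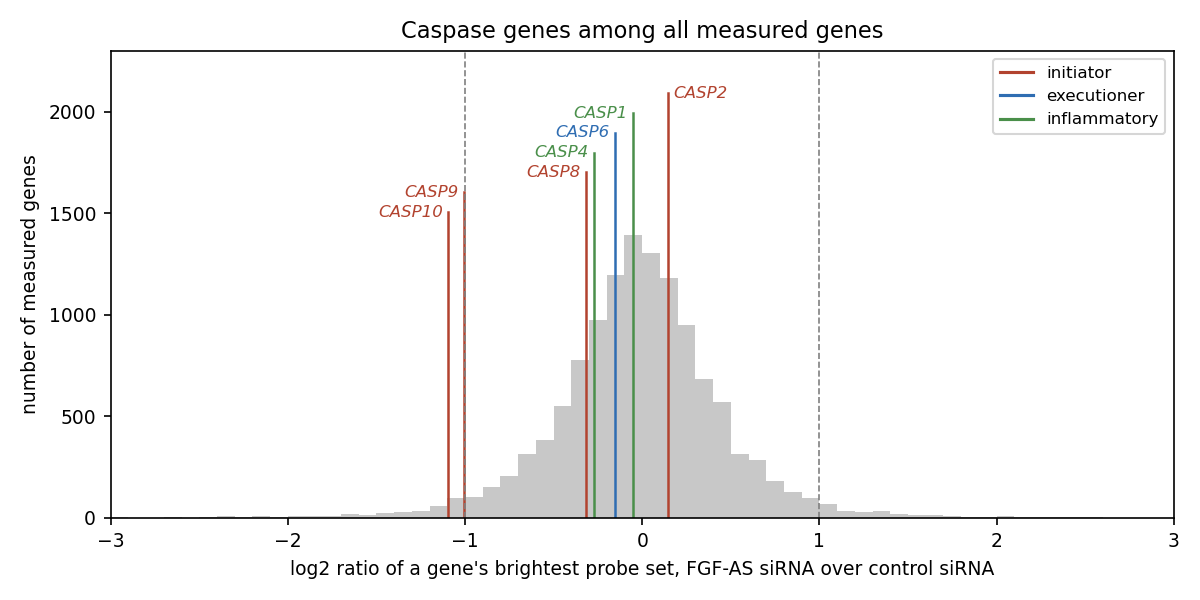
Number of measured genes by log2 ratio of the brightest probe set (FGF-AS siRNA over control siRNA, grey bars, values beyond 3 in the outermost bars), with a line for each caspase gene coloured by class and dashed lines at 2-fold. CASP10 at -1.09 and CASP9 at -1.01 lie in the lower tail, and the other 5 lie between -0.32 and 0.14.

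The genes that act with caspases were described next, by lists of their roles. Over all lists 50 genes were measured, of which 26 were below 0 and 24 above, with a median of -0.03. On its brightest probe set none passed 2-fold in either direction, where 4.77% of all measured genes did. By at least 1.5-fold, 4 of the 50 were lower and 2 higher, where 9.52% of all measured genes were lower and 7.96% higher by that much.

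Upstream of CASP9, 4 of the 6 measured genes of the mitochondrial route were below 0, with a median of -0.09 that turned to 0.05 under median centring. That setting also moved the median over all measured genes, from -0.02 to 0.12. HTRA2, a mitochondrial protease that relieves caspase inhibition, was furthest from 0 at 443.9 with FGF-AS siRNA and 752.4 with control siRNA, a log2 ratio of -0.75, and -0.30 on its other probe set. APAF1, the scaffold of the apoptosome, was named after its values were seen: it read 111.6 with FGF-AS siRNA and 111 with control siRNA on its brightest probe set, but had a log2 ratio of -1.19 on the other measured one. The arrays therefore gave no single answer for the scaffold on which caspase-9 is activated.

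In the death receptor route upstream of CASP8 and CASP10, 9 of 15 measured genes were below 0, with a median of -0.10 that turned to 0.02 under median centring. Here too the median over all measured genes moved, from -0.02 to 0.12. TNFRSF25, a death receptor, was furthest from 0 at 44.7 with FGF-AS siRNA and 20.1 with control siRNA, a log2 ratio of 0.96, but its control signal lay under the minimum and its other measured probe set gave -1.26. The receptor genes FAS and TNFRSF10B were named after their values were seen. FAS read 355.5 with FGF-AS siRNA and 588.9 with control siRNA, a log2 ratio of -0.72, and its other 4 measured probe sets ran from -1.28 to -0.75. TNFRSF10B, the receptor of the ligand TRAIL, read 791.3 with FGF-AS siRNA and 1032.2 with control siRNA, a log2 ratio of -0.38, with -1.32 and -1.17 on its other measured probe sets. All measured probe sets of both receptors were below 0, but 6 of the 15 measured genes of the list were above 0. Among these TNFRSF1A read 1354.1 with FGF-AS siRNA and 1016 with control siRNA, a log2 ratio of 0.41. CASP8AP2 read 199.6 with FGF-AS siRNA and 140.1 with control siRNA, a log2 ratio of 0.49. Both were also named after their values were seen. FADD, the adaptor that joins receptors to caspase-8, had a log2 ratio of -0.10.

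For CASP2, the adaptor gene CRADD read 159.5 with FGF-AS siRNA and 270.6 with control siRNA, a log2 ratio of -0.74, while PIDD1 was under the minimum. Of 7 measured inflammasome genes around CASP1 and CASP4, 3 were below 0 and the median was 0.01. NINJ1, which ruptures the plasma membrane of dying cells, was furthest from 0 at 1013.2 with FGF-AS siRNA and 1790 with control siRNA, a log2 ratio of -0.82. The inflammasome adaptor gene PYCARD read 3.3 with FGF-AS siRNA and 2.7 with control siRNA, far under the minimum.

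Genes of the inhibitor of apoptosis (IAP) family, whose products bind caspases or their regulators, had 1 of 6 measured members below 0, where 51.8% of all measured genes were, and a median of 0.11 (SD across genes 0.25). None was different by 1.5-fold, and NAIP stood at 0.01 on its brightest probe set and -0.14 on the other. The one furthest from 0 was the dim BIRC7, at 84 with FGF-AS siRNA and 55.2 with control siRNA, a log2 ratio of 0.56. XIAP, the direct inhibitor of caspase-9, had a log2 ratio of -0.03 on its brightest probe set, and its 6 other measured ones ran from -1.03 to -0.01. Downstream, the 16 genes of proteins that executioner caspases cut had 8 ratios below 0 and 8 above, with a median of -0.00. LMNB2, a nuclear lamin gene, was furthest from 0 at 398.9 with FGF-AS siRNA and 220.2 with control siRNA, a log2 ratio of 0.84. How the caspase median of -0.27 ranks among these lists depended on the settings. Without _s_at and _x_at probe sets it was 0.072 over 3 genes, with the death receptor list at -0.29 over 10 genes, and at the stricter minimum the inflammasome list stood at -0.51 over 2 genes.

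**Figure D4:**
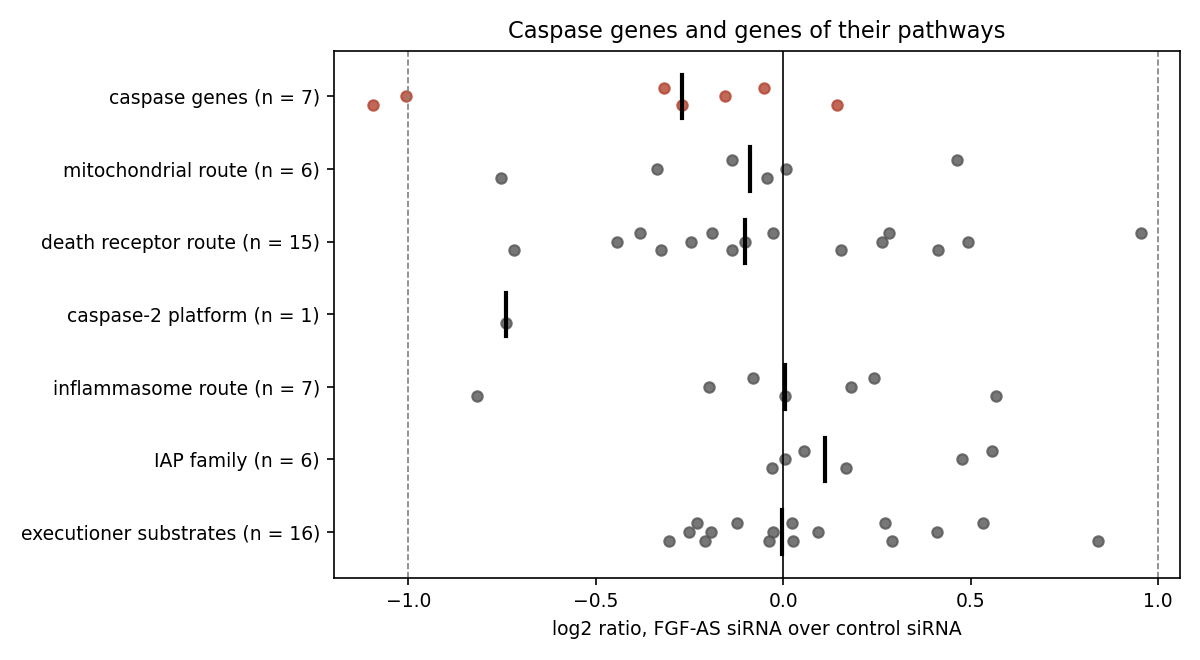
Log2 ratio of the brightest probe set (FGF-AS siRNA over control siRNA) of each measured caspase gene (red) and of each measured gene in 6 lists of caspase pathways (grey); black bars are medians and dashed lines mark 2-fold. Only the caspase row holds points past a 2-fold line, and the medians of the lists with more than 1 gene lie between -0.10 and 0.11. These points are CASP10, whose FGF-AS siRNA signal is under the minimum, and CASP9, which fell short of 2-fold under the 3 other scalings. Some list genes, among them FAS, TNFRSF10B and APAF1, passed 2-fold lower on measured probe sets that are not drawn.

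Across the processing settings tried, CASP9 and CASP10 stayed the lowest of the caspase genes that were measured. CASP9 ran from -1.02 to -0.79 and CASP10 from -1.20 to -0.94, so their 2-fold size was lost under some settings. CASP9 kept its direction. For CASP10 each setting read the same 1 measured probe set, which passed the minimum only through its control signal. The settings therefore could not check the direction of CASP10. CASP8 ran from -0.56 to -0.18 and CASP6 from -0.16 to -0.01, both below 0 throughout. CASP1 ran from -0.05 to 0.11, CASP4 from -0.27 to 0.07 and CASP2 from -0.37 to 0.28, each taking both signs.

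**Figure D5:**
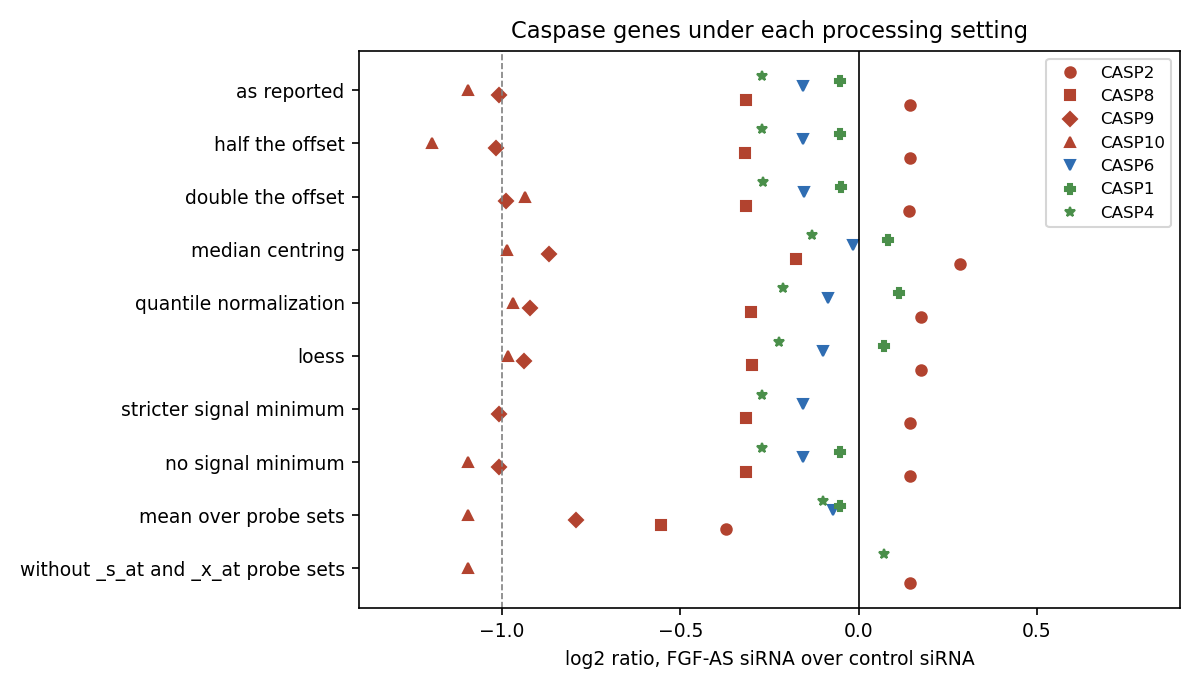
Log2 ratio (FGF-AS siRNA over control siRNA) of each caspase gene as reported and under 9 other processing settings, coloured by class as initiator (red), executioner (blue) or inflammatory (green); a gene without a measured probe set under a setting has no point. CASP9 and CASP10 lie between -1.20 and -0.79 in each setting that measures them, near the dashed 2-fold line at -1, and the other genes lie closer to 0.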

How the data were processed

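Seg-1 RNA was hybridised to 2 Affymetrix arrays, 1 per group. The authors deposited linear probe set intensities, for which GCOS and MAS5 are listed, per the submitters' processing notes, without version or role. MAS5 combines the probes of a set into a single signal. How the arrays were scaled is not given in the sources, and detection calls were not used, so a low signal cannot be told from background. Precision is limited by the number of arrays.

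Of 54675 probe sets, 62 controls were left out, 41091 of the rest had 1 gene symbol, 1801 several and 11721 none. A RefSeq table (GRCh38.p14), matched on gene identifiers, held 41037 of those with 1 symbol and changed 0 names. Probe sets with several symbols gave no gene value, and only that of CASP1 and CARD16 is described. Log2 ratios were taken with an offset of 6.1, the 25th percentile of all signals, which understates changes of dim genes, with no further scaling. A gene was represented by its brightest probe set. The SD of a ratio was pooled within genes over probe sets of one brightness class. Alternatives were an offset of 3.05 or 12.2, 3 scalings, a stricter or no minimum, the mean over probe sets, and no _s_at or _x_at probe sets. The ratio and SD calculations were tested on simulated data. Python 3.11.15, numpy 2.4.6, pandas 2.3.3 and statsmodels 0.14.6 were used.

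Named genes were the 7 caspase genes with all probe sets, NUDT6, and in each pathway list the measured gene furthest from 0 and any past 2-fold. The caspase genes and all lists were chosen with earlier results of these data known. Markers, CFLAR, APAF1, FADD, PIDD1, PYCARD, FAS, TNFRSF10B, TNFRSF1A, CASP8AP2 and XIAP were added beyond that rule. So were NAIP, CARD16, CASP5, CASP12 and CASP14.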

Additional observations from a re-analysis of the deposited data

How the results depend on the processing

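No paired analysis was possible because each group held 1 array, and for the same reason no replicate could be left out. The count of 2 caspase genes past 2-fold lower became 0 with the doubled offset of 12.2 and under each of the 3 other scalings (loess, quantile normalization, median centring). It became 1 at the stricter minimum (CASP9, with 5 genes measured), 1 with the mean over probe sets (CASP10) and 1 without _s_at and _x_at probe sets (CASP10, with 3 genes measured). It was 2 with the smaller offset of 3.05 and with no minimum, and no setting gave a caspase gene past 2-fold higher. The count of 3 probe sets past 2-fold became 1 with the larger offset, under each of the 3 scalings and at the stricter minimum, and 5 with no minimum. Without _s_at and _x_at probe sets the caspase median turned to 0.072, since CASP2, CASP4 and CASP10 were then the only genes measured, and over the other settings it ran from -0.37 to -0.13. The initiator median minus the CASP6 ratio was -0.16 at the stricter minimum and between -0.60 and -0.47 elsewhere, and could not be computed without _s_at and _x_at probe sets. CASP9 stayed between -1.02 and -0.79 under every setting that measured it, so it kept its direction and lost only the 2-fold size. CASP10 stayed between -1.20 and -0.94, but each of these settings read its 1 measured probe set. That probe set passed the minimum only through its control signal, so the settings could not check the direction of CASP10. CASP2 ran from -0.37 to 0.28. Low signal limits CASP1 and CASP10 most, as neither had a bright probe set.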

Other observations

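The remaining caspase genes with a single-symbol probe set were all under the signal minimum. CASP5, an inflammatory caspase gene, read 13.8 with FGF-AS siRNA and 22 with control siRNA. CASP12 read 5.3 with FGF-AS siRNA and 14.2 with control siRNA, and CASP14, a caspase gene of skin keratinocytes, read 1.1 with FGF-AS siRNA and 3.5 with control siRNA. A probe set annotated to both CASP1 and CARD16 was left out of the values above because it has 2 symbols, and it read 12.8 with FGF-AS siRNA and 11.6 with control siRNA.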
